A study of Mus musculus with 3 samples.

Results

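The genes described here are the 4 R-spondins, Rspo1, Rspo2, Rspo3 and Rspo4, and the 3 receptors that bind them, Lgr4, Lgr5 and Lgr6. They were taken by gene identifier from the count matrices of 3 single-cell libraries of mouse mandibular molars, and each of the 7 genes had 1 row in every matrix, of 27040 identifiers that the 3 matrices shared. The first library, Cxcl12-GFP P6, came from Cxcl12-GFP/+ mice of postnatal day 6 and was sorted for GFP. The other day 6 library, Cxcl12-creER P6, held cells that expressed tdTomato in mice with Cxcl12-creER and R26R(tdTomato/+), where an inducible Cre is made in cells with an active Cxcl12 promoter and switches the tdTomato reporter on for good in those cells and their descendants. The library called P25 came from mice of postnatal day 25 with Col1a1-GFP, Cxcl12-creER and R26R(tdTomato/+), sorted for GFP, for tdTomato or for both. GFP there reports the promoter of Col1a1, which encodes the main collagen chain of bone and ligament. Each group was 1 library, the labels used here give neither the number of animals nor the time of tamoxifen, and age, alleles, sorted population and library cannot be told apart between them. No p-value was therefore made, cells are not replicates, and every 95% interval given in parentheses covers counting error only.

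R-spondins are secreted proteins that strengthen Wnt signalling. They bind Lgr4, Lgr5 or Lgr6 together with the membrane E3 ubiquitin ligases Znrf3 and Rnf43, which otherwise mark Frizzled receptors for degradation, so that more Frizzled and LRP co-receptor stays at the surface. Lgr5 is best known as a marker of epithelial stem cells, and Wnt signalling takes part in the growth of tooth roots, dentin, cementum and bone.

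In the mouse genome (GRCm38, GENCODE M21) Rspo1 lies on chromosome 4 from 124986430 to 125009099 on the plus strand, and Rspo2 on chromosome 15 from 43020794 to 43170826 on the minus strand. Rspo3 lies on chromosome 10 from 29452416 to 29535867 on the minus strand, and Rspo4 on chromosome 2 from 151842927 to 151874668 on the plus strand. Lgr4 lies on chromosome 2 from 109917647 to 110014257 on the plus strand. Lgr5 lies on chromosome 10 from 115450311 to 115587780 and Lgr6 on chromosome 1 from 134983301 to 135105276, both on the minus strand. The annotation places antisense genes over Rspo1 (Gm12930), Rspo4 (Rspo4os) and Lgr5 (A930009A15Rik), and a gene on the same strand over Rspo3 (Gm20276). A further antisense gene at Rspo3, Gm48159, is listed in the Cxcl12-creER P6 matrix and in neither of the other matrices. How the counting treated these overlaps is not given in the sources used here.

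After filtering, 7065 cells of Cxcl12-GFP P6, 1121 of Cxcl12-creER P6 and 5401 of P25 were kept, with median depths of 8141, 1469 and 14778 unique molecular identifiers (UMIs) per cell, and at most 3 kept barcodes were shared by a pair of libraries. Cells were clustered in each library without the 7 genes, and clusters were called by marker genes, with 21.9%, 53.0% and 13.3% of cells left unnamed. Levels are the UMIs of a gene summed over a class and scaled to a total of 1000000 UMIs (CPM), and since UMIs count molecules from their 3' ends they are not divided by gene length. Marker sums were made for 7 lists, and each was highest in the class of its name in every library with that class. The papilla and pulp list reached 3980 CPM in papilla or pulp-like cells of Cxcl12-GFP P6 against 1344 CPM in the follicle or ligament-like class, and the follicle and ligament list 2526 and 6175 CPM, although mural-like cells had 3677 CPM of the papilla and pulp list. The follicle or ligament-like class is for short called follicle at day 6 and ligament-like at P25, which does not tell the tissues apart. Cluster 9 of Cxcl12-GFP P6 and cluster 22 of Cxcl12-creER P6 matched the periodontal ligament markers best. Clusters 2 and 13 of P25 matched the dental follicle markers best. The large class called Col9a1-high mesenchymal carries cartilage-type collagen markers, in Cxcl12-GFP P6 with Col2a1 among them. Its Col2a1 was under the 1000 CPM asked for a cartilage name, so it has no cell type name. Cells led by Dspp at P25, a dentin protein gene, are called Dspp-high because their leading genes hold more bone than odontoblast markers. In Cxcl12-creER P6 the epithelial and enamel list was at 738 CPM or more in every class that is not epithelial, so low levels there are read against that background.

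Rspo1 was the main R-spondin of the follicle or ligament-like class taken as a whole. This class joins the dental follicle and the periodontal ligament, the tissue that anchors the root. In Cxcl12-GFP P6 the 1158 cells of the follicle or ligament-like class had 77.2 CPM (72.2 to 82.4), against 28.9 CPM in papilla or pulp-like cells, 10.2 CPM in Col9a1-high cells and 2.80 CPM in endothelial-like cells. In Cxcl12-creER P6 the 89 follicle or ligament-like cells had 57.7 CPM (39.7 to 81.1) from 33 UMIs, and at P25 the 1957 ligament-like cells had 35.9 CPM (33.9 to 38.0). This was the highest named class for Rspo1 in each of the 3 libraries, although at P25 the interval of connective tissue fibroblast-like cells, 29.3 CPM (21.3 to 39.4), overlaps it. Other settings put another class first: at P25 fibroblast-like cells, with 46.3 CPM at resolution 0.5 and 57.1 CPM with the libraries clustered together. In Cxcl12-creER P6 it was osteoblast-like cells in joint clustering (68.0 CPM), and, when each cluster took its best-scoring list, cells given the erythroid name (144 CPM). At least 1 Rspo1 UMI was found in 46.9% (44.0 to 49.8) of these cells in Cxcl12-GFP P6 and in 34.3% at P25. After every cell was thinned to 1000 UMIs, those shares were 6.65% and 3.37%. The background was low, with Rspo1 in 2.60% of endothelial-like cells at day 6.

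Within the P25 ligament-like cells Rspo1 ranged from 15.2 CPM in cluster 1 to 75.8 CPM (67.3 to 85.0) in cluster 6, where the bone matrix gene Ibsp stood among the leading genes. The 1028 osteoblast or cementoblast-like cells had 11.5 CPM, and nearly all of it came from 1 cluster of 250 cells. That cluster, numbered 9, was led by Ibsp, Pthlh, Dmp1 and Bmp3 and held 72.1 CPM (62.5 to 82.8) from 201 UMIs, while the other osteoblast-like clusters together held 0.520 CPM from 8 UMIs, a ratio of 139 (69.0 to 325). The mineralizing cells were therefore not alike, with 1 cluster at the level of the highest ligament cluster and 4 of the other 5 at 0.636 CPM or less. The fifth of these, cluster 19, had 3 Rspo1 UMIs (13.9 CPM) in 92 cells of low depth. Pulp-like cells held 1 Rspo1 UMI in 633 cells.

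At day 6 the papilla or pulp-like class joined 2 clusters with opposite Rspo1 levels. Cluster 6 of Cxcl12-GFP P6, led by Thbs4 and Smoc2, had 60.8 CPM (53.3 to 69.0), and cluster 3, led by Cldn10 and Irx5, had 1.32 CPM from 6 UMIs, a 46.1-fold difference (20.9 to 127). Cluster 3 shares the leading genes Cldn10 and Trf with the pulp-like clusters of P25. The class value of Rspo1 at day 6 is thus an average of cells near the follicle level and cells near 0. An unnamed cluster of the same library, numbered 8 and led by Mmp13 and Acta2, had 58.1 CPM, and the highest level in Cxcl12-creER P6 was 144 CPM from 43 UMIs in its unnamed cluster 2, which Mmp13 also led.

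**Figure D1:**
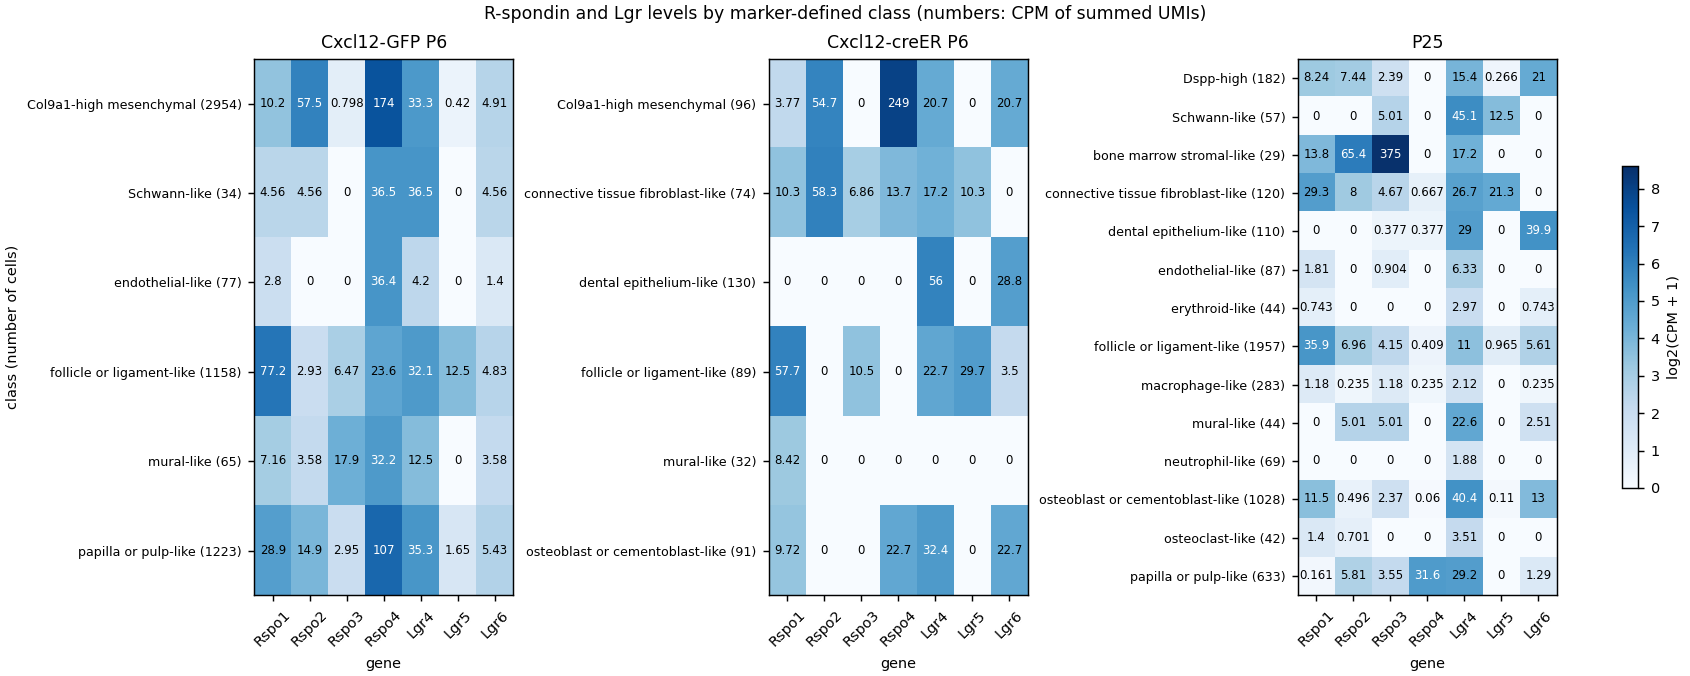
Heat map of the 7 genes in each named class of at least 20 cells in the 3 libraries: colour gives log2(CPM + 1), printed numbers give CPM, and class cell numbers stand in parentheses. Rspo1 is highest in the follicle or ligament-like class of every library (77.2, 57.7 and 35.9 CPM), and Rspo3 at P25 reaches 375 CPM in bone marrow stromal-like cells.

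Rspo2 was highest in the Col9a1-high mesenchymal cells among the named classes of Cxcl12-GFP P6. Its level there was 57.5 CPM (54.5 to 60.7) in 2954 cells of Cxcl12-GFP P6 and 54.7 CPM (36.6 to 78.5) in 96 cells of Cxcl12-creER P6. Papilla or pulp-like cells of Cxcl12-GFP P6 had 14.9 CPM (12.4 to 17.7), and follicle or ligament-like cells 2.93 CPM (2.03 to 4.10), while no Rspo2 UMI was seen in 77 endothelial-like cells, which allows 4.20 CPM. The 2 day 6 libraries thus gave Col9a1-high levels whose intervals overlap. Connective tissue fibroblast-like cells of Cxcl12-creER P6 reached 58.3 CPM (34.0 to 93.4) from 17 UMIs in 74 cells. In the cycling cluster 10 of Cxcl12-GFP P6 Rspo2 stood at 89.8 CPM (79.5 to 101).

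At P25 no class matched those levels except the 29 bone marrow stromal-like cells, a class marked by Adipoq and Lepr, with 65.4 CPM (39.4 to 102) from 19 UMIs. Ligament-like cells had 6.96 CPM (6.10 to 7.90), and their cluster 13, led by Coch, Pcp4 and Pthlh, had 32.6 CPM (25.2 to 41.4), 6.09-fold (4.51 to 8.13) the level of the other ligament-like clusters. The unnamed cluster 11, led by Ambn and Crabp1, had 31.1 CPM (25.7 to 37.4). Of the 498 Rspo2 UMIs of the library cluster 11 held 114 and ligament-like cells 238, of which 66 were in cluster 13, so high levels were seen in small clusters while many UMIs lay in larger ones at low levels. Osteoblast-like cells held 9 UMIs in 1028 cells (0.496 CPM), and Dspp-high cells 7.44 CPM (4.95 to 10.8), a ratio of 15.02 (6.89 to 36.2).

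Rspo3 was the scarcest R-spondin in Cxcl12-GFP P6 and Cxcl12-creER P6, with 308 and 40 UMIs over all kept cells. In Cxcl12-GFP P6 mural-like cells, which wrap small vessels, had 17.9 CPM (8.58 to 32.9), but from only 10 UMIs, of which 5 came from 1 cell. Follicle or ligament-like cells had 6.47 CPM (5.09 to 8.12), papilla or pulp-like cells 2.95 CPM and Col9a1-high cells 0.798 CPM. The unnamed clusters 11 (cycling) and 8 (led by Mmp13) were higher, at 24.3 CPM (18.8 to 30.9) and 16.6 CPM (13.2 to 20.6). Of these groups the Col9a1-high class had the least Rspo3.

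At P25 the level of Rspo3 was far higher in 1 small class than elsewhere, although most of its UMIs lay in other cells, 142 of them in ligament-like cells at 4.15 CPM. The 29 bone marrow stromal-like cells held 109 of the 443 Rspo3 UMIs of the library, at 375 CPM (308 to 452), and 82.8% (64.2 to 94.2) of them had at least 1. That was 100.1-fold (79.9 to 125) the level of all other kept cells, which stood at 3.74 CPM. At 1000 UMIs per cell the gene was still found in 34.5% of these cells and in 0.358% of ligament-like cells. No single cell carried the value, since the most UMIs in 1 cell was 16. In ligament-like cluster 17 Rspo3 was at 20.5 CPM (13.9 to 29.1), but there 17 of 31 UMIs came from 1 cell. The unnamed cluster 4, whose leading genes mix haemoglobin with ligament genes, had 22.7 CPM (18.4 to 27.8).

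Rspo4 was the most abundant R-spondin of the day 6 GFP library, with 7790 UMIs against 1842 for Rspo1 and 1882 for Rspo2. Col9a1-high cells had 174 CPM (169 to 179) and papilla or pulp-like cells 107 CPM (100.5 to 115), while follicle or ligament-like cells had 23.6 CPM (20.9 to 26.5). Cells outside the tooth mesenchyme had as much as the follicle: 36.4 CPM (23.8 to 53.3) in endothelial-like, 32.2 CPM in mural-like and 36.5 CPM in Schwann-like cells, at 26.0% of endothelial-like and 21.2% of follicle or ligament-like cells. The follicle value does not stand above these cells, whose level is called the background of this library here, and is not read as expression. Free RNA was not estimated separately. The shares of 56.3% in Col9a1-high and 39.7% in papilla or pulp-like cells stand above it, and at 1000 UMIs per cell the share was 14.0%, 9.48% and, in endothelial-like cells, 3.90%.

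Rspo4 and Rspo2 ran in opposite order over the Col9a1-high clusters of Cxcl12-GFP P6. Rspo4 was at 337 CPM (324 to 350) in cluster 0, 224 CPM in cluster 12, 158 CPM in cluster 7, 83.3 CPM in cluster 4 and 31.6 CPM in cluster 2. Over the same clusters Rspo2 stood at 22.2, 40.8, 62.7, 71.5 and 93.2 CPM. Between clusters 0 and 2 Rspo4 was 10.6-fold higher (9.12 to 12.5) and Rspo2 4.19-fold lower (3.52 to 5.01). The Rspo4 level of cluster 2 lies within the endothelial-like interval of 23.8 to 53.3 CPM, so it too is at background. In single cells of this class Rspo4 was found in 46.5% (43.2 to 49.7) of the cells with Rspo2 and in 60.7% (58.5 to 62.8) of those without, at median depths of 8093 and 7807 UMIs. These shares pool the clusters of the class, so they cannot be told apart from the differences between clusters. The clusters were built without either gene, and their leading genes were Col9a1 and Lect1 in cluster 0 and Tac1 and Nell1 in cluster 2.

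**Figure D2:**
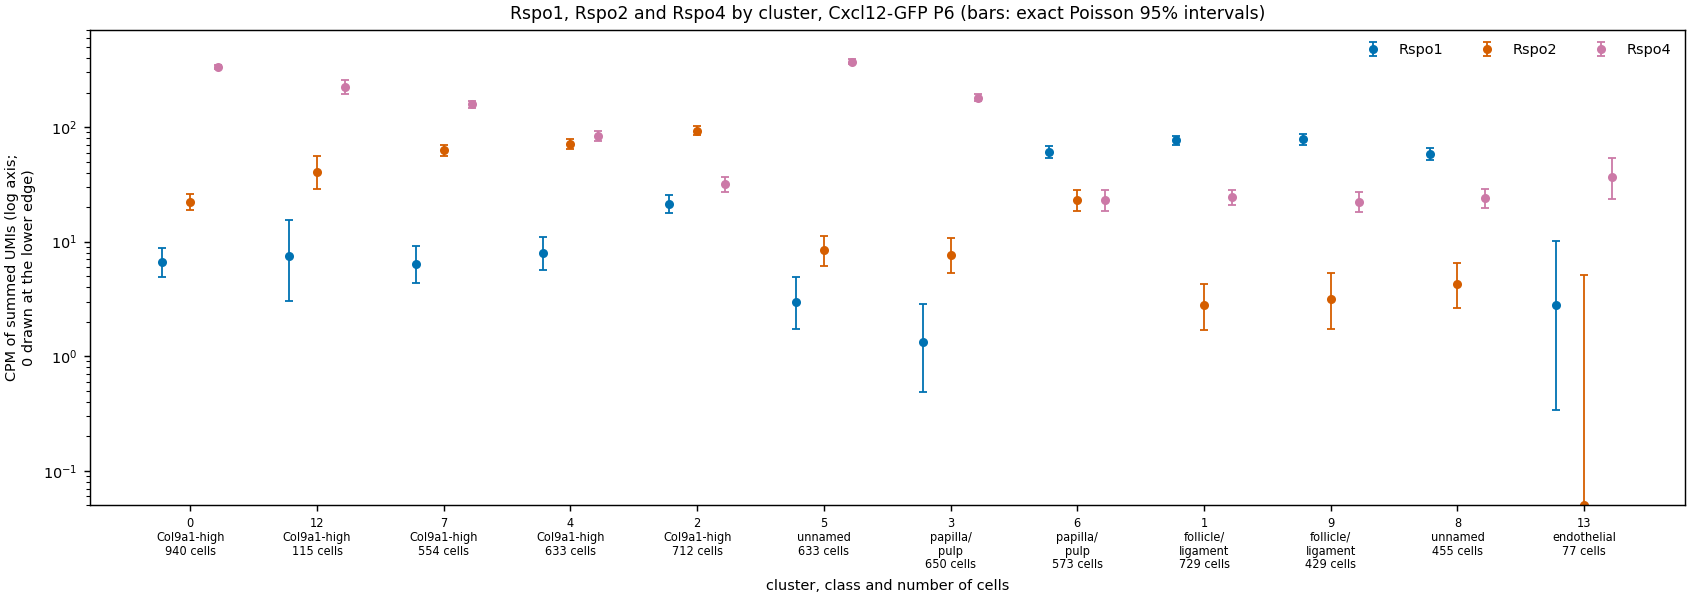
Rspo1, Rspo2 and Rspo4 in 12 clusters of Cxcl12-GFP P6, among them the unnamed clusters 5 and 8 and endothelial-like cluster 13, in CPM of summed UMIs on a log axis with exact Poisson 95% intervals; a count of 0 is drawn at the lower edge. Rspo4 is at 337 CPM in Col9a1-high cluster 0 and 31.6 CPM in cluster 2, where Rspo2 is at 22.2 and 93.2 CPM, and pulp-like clusters 3 and 6 differ in Rspo1 (1.32 and 60.8 CPM).

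The highest Rspo4 level of a large cluster was in the unnamed cluster 5 of Cxcl12-GFP P6, with 372 CPM (356 to 389) in 633 cells. Its leading genes Irx5, Stc2 and Cldn10 are also those of pulp-like cluster 3, which had 180 CPM (168 to 193), and the other pulp-like cluster, 6, had 23.1 CPM, within the background. Rspo4 was 7.78-fold (6.26 to 9.78) higher in cluster 3 than in cluster 6, the reverse of Rspo1. In single pulp-like cells Rspo4 was found in 13.7% (9.09 to 19.6) of the cells with Rspo1 and in 44.3% (41.2 to 47.4) of those without. These shares pool clusters 3 and 6, so they cannot be told apart from the difference between the clusters. At day 6 the pulp side was thus split by cluster, with Rspo4 in the Cldn10 cluster 3 and Rspo1 in the Thbs4 cluster 6.

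In Cxcl12-creER P6 the Col9a1-high cells had 249 CPM of Rspo4 (208 to 295), but its 132 UMIs lay in 13 of 96 cells, 41 of them in 1 cell. The mean of each cell's own CPM was 94.1, and when cells of at least 1000 genes were clustered anew the highest named class for Rspo4 was osteoblast-like, at 3.31 CPM. No Rspo4 UMI was seen in the 89 follicle or ligament-like cells of that library. At P25 pulp-like cells had 31.6 CPM (27.3 to 36.4) in 20.4% of 633 cells, and every other named class lay at 0.667 CPM or less, with 0.409 CPM in ligament-like cells. This rests on the naming of clusters. With the best-scoring list alone the highest P25 class was Col9a1-high, at 27.7 CPM. It was Col9a1-high again, at 14.5 CPM, in joint clustering, which gave no pulp-like class. The P25 pulp signal stands far above that library's background, which was much lower than at day 6. The unnamed cluster 11 also held Rspo4, at 16.9 CPM (12.99 to 21.7).

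The makeup of the R-spondin pool differed between classes. Rspo1 gave 70.1% (67.5 to 72.6) of all R-spondin UMIs in the follicle or ligament-like class of Cxcl12-GFP P6, 84.6% (69.5 to 94.1) in Cxcl12-creER P6 and 75.7% (73.5 to 77.8) at P25. Cluster 13 of that P25 class was an exception, with 66 Rspo2 UMIs (32.6 CPM) against 35 of Rspo1 (17.3 CPM). Rspo4 gave 69.7% (67.1 to 72.2) in papilla or pulp-like cells at day 6 and 76.9% (71.2 to 81.9) at P25. In Col9a1-high cells of Cxcl12-GFP P6 it gave 71.7% and Rspo2 23.7%. The follicle denominator of Cxcl12-GFP P6 was 1276 UMIs, of which 273 were Rspo4 at background level, beside 894 of Rspo1, 34 of Rspo2 and 75 of Rspo3. The day 6 pulp share was an average of unlike clusters: Rspo4 gave 93.1% (91.2 to 94.7) in cluster 3, while in cluster 6 Rspo1 led at 56.1% (51.2 to 60.9). Bone marrow stromal-like cells were the only named class of 20 or more R-spondin UMIs led by Rspo3, at 82.6% (75.0 to 88.6).

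**Figure D3:**
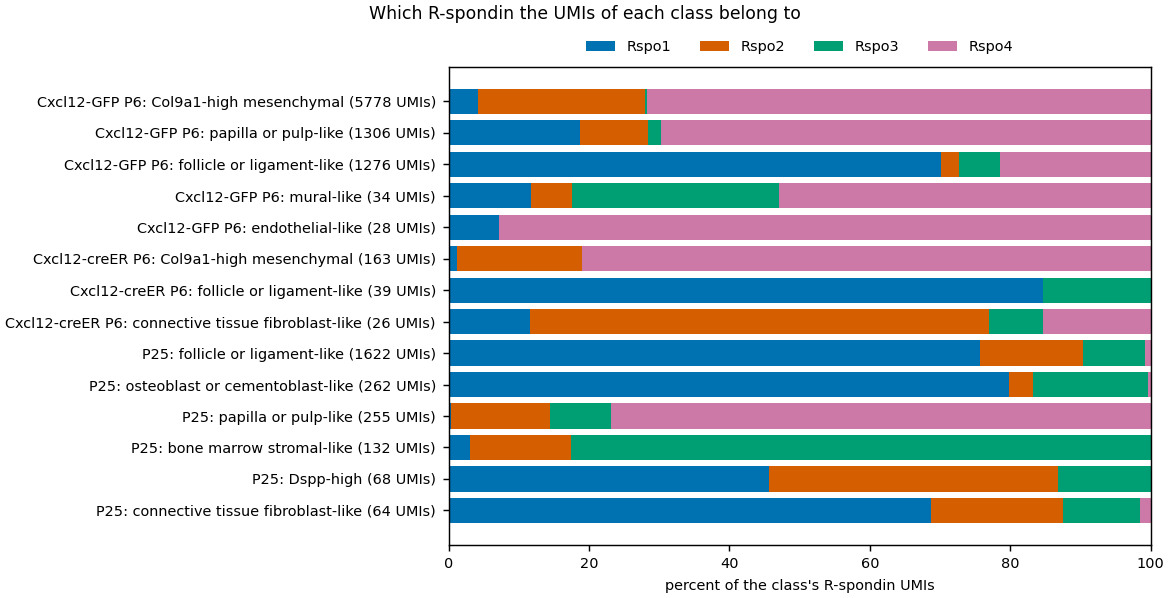
Share of each R-spondin among all R-spondin UMIs of a class, in percent, for each library, with the number of UMIs. Follicle or ligament-like cells are mostly Rspo1 (70.1% and 75.7% in Cxcl12-GFP P6 and P25), and papilla or pulp-like cells mostly Rspo4 (69.7% and 76.9%).

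Among the receptors Lgr4 was the broadest. In Cxcl12-GFP P6 it stood at 35.3 CPM (31.4 to 39.5) in papilla or pulp-like, 33.3 CPM (31.0 to 35.7) in Col9a1-high and 32.1 CPM (28.9 to 35.5) in the follicle or ligament-like class, and the 3 intervals overlap. Endothelial-like and mural-like cells had less, at 4.20 CPM (0.865 to 12.3) and 12.5 CPM (5.04 to 25.8). The 34 Schwann-like cells were the highest named class, at 36.5 CPM (15.7 to 71.8) from 8 UMIs, an interval that includes the mesenchymal levels. Lgr4 nevertheless varied between clusters, from 19.0 CPM in cluster 2 to 97.7 CPM (78.6 to 120) in cluster 12, both of the Col9a1-high class. It was 2.37-fold (1.89 to 2.98) higher in the Rspo4-rich cluster 0 than in cluster 2, and 2.29-fold (1.77 to 2.99) higher in pulp-like cluster 3 than in cluster 6. Within Col9a1-high cells, with all their clusters pooled, Lgr4 was found in 23.5% (21.5 to 25.6) of the cells with Rspo4 and 17.1% (15.1 to 19.3) of those without. The median depths were 8161 and 7556 UMIs. In Cxcl12-creER P6 the 130 dental epithelium-like cells were highest, at 56.0 CPM (43.8 to 70.6), although by the mean of each cell's own CPM osteoblast-like cells were, at 73.4.

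At P25 Lgr4 was highest in Schwann-like cells, with 45.1 CPM (26.7 to 71.3) from 18 UMIs, and in osteoblast or cementoblast-like cells, with 40.4 CPM (37.5 to 43.4) from 733. Pulp-like and epithelium-like cells followed at 29.2 CPM (25.1 to 33.8) and 29.0 CPM (22.9 to 36.3), then fibroblast-like cells at 26.7 CPM, Dspp-high cells at 15.4 CPM (11.7 to 19.9) and ligament-like cells at 11.0 CPM (9.91 to 12.2). Macrophage-like and neutrophil-like cells had 2.12 and 1.88 CPM. The intervals of pulp-like, epithelium-like and fibroblast-like cells overlap, and that of osteoblast-like cells lies above those of pulp-like and epithelium-like cells. Within the osteoblast-like class the 50 cells of cluster 24, led by the osteocyte genes Dmp1 and Phex, reached 88.6 CPM (71.8 to 108), and cluster 9, the cluster rich in Rspo1, had 14.0 CPM (9.95 to 19.1). The osteoblast-like cluster that held Rspo1 was thus low in Lgr4, beside cluster 19 at 13.9 CPM from 3 UMIs, and the other 4 clusters stood at 37.4 CPM or more. In single cells Lgr4 was found in 12.9% (7.86 to 19.7) of osteoblast-like cells with Rspo1 and 42.2% (38.9 to 45.5) of those without, at median depths of 10852 and 16485 UMIs. These shares pool the clusters of the class, and cluster 9 held 201 Rspo1 UMIs against 8 in the others. They cannot be told apart from the difference between clusters.

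Lgr5 was the rarest receptor, with 185, 30 and 82 UMIs in the 3 libraries, and in both day 6 libraries the follicle or ligament-like class was highest. In Cxcl12-GFP P6 the follicle or ligament-like class had 12.5 CPM (10.6 to 14.7) and papilla or pulp-like cells 1.65 CPM (0.903 to 2.77). The level of Col9a1-high cells there was 0.420 CPM (0.201 to 0.772). The follicle cells of Cxcl12-creER P6 had 29.7 CPM (17.3 to 47.6) from 17 UMIs. Other settings put another class of that library first. It was papilla or pulp-like cells at resolution 2.0 and without doublet removal, at 30.3 CPM in both. It was cells given the macrophage name with the best-scoring list (99.2 CPM) and fibroblast-like cells in joint clustering (21.3 CPM). In the follicle or ligament-like class of Cxcl12-GFP P6, cluster 1 (Bmp3, Moxd1) matched the dental follicle markers best and had 17.6 CPM of Lgr5. Cluster 9 (Lpl, Tnmd) matched the periodontal ligament markers best and had 4.31 CPM, a ratio of 4.08 (2.51 to 7.001) between the clusters. Their Rspo1 levels of 76.5 and 78.2 CPM did not part. No Lgr5 UMI was seen in the dental epithelium-like cells of either Cxcl12-creER P6 or P25, where a count of 0 allows 2.33 and 1.13 CPM.

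At P25 Lgr5 marked 2 small groups. The 120 connective tissue fibroblast-like cells had 21.3 CPM (14.6 to 30.1) from 32 UMIs, and the 110 cells of ligament-like cluster 17, led by Aspn, Mgp, Mfap4 and Cxcl5, had 16.5 CPM (10.7 to 24.4) from 25 UMIs. The other ligament-like clusters held 8 Lgr5 UMIs in all, at 0.245 CPM, so that cluster 17 was 67.5-fold (29.5 to 173) higher. Schwann-like cells had 12.5 CPM from 5 UMIs, pulp-like cells had none, and osteoblast-like cells had 2 UMIs.

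Lgr6 was low and even in the day 6 GFP mesenchyme, at 4.83 to 5.43 CPM in the follicle, Col9a1-high and pulp classes, and 1.40 CPM (0.0354 to 7.79) in endothelial-like cells, whose interval includes those levels. Clusters differed, with 9.16 CPM (6.41 to 12.7) in pulp-like cluster 6 and 2.20 CPM in cluster 3. The dental epithelium-like class was the highest named class in both libraries that held over 100 such cells, with 28.8 CPM (20.3 to 39.7) in Cxcl12-creER P6 and 39.9 CPM (32.7 to 48.3) at P25. In the former the interval overlaps that of osteoblast-like cells, 22.7 CPM (9.12 to 46.7), and by the mean of each cell's own CPM Col9a1-high cells were highest, at 58.1. The epithelial cells thus carried Lgr4 and Lgr6, and R-spondins there came to 0 UMIs in Cxcl12-creER P6 and 2 UMIs at P25. The leading genes of this class differed between these libraries. Of its 130 cells in Cxcl12-creER P6, 88 were in cluster 1, led by the enamel genes Amelx, Enam and Ambn, and 42 in cluster 14, led by Krt14. At P25 its 110 cells were led by Krt14, Krt5 and Krt17. The levels are therefore not read as those of 1 epithelium at both ages.

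At P25 Lgr6 was next in Dspp-high cells, at 21.002 CPM (16.6 to 26.2), and in osteoblast-like cells, at 12.99 CPM (11.4 to 14.8). The osteocyte-gene cluster 24 stood out with 42.9 CPM (31.5 to 57.1), 3.88-fold (2.75 to 5.36) the other osteoblast-like clusters, and cluster 10 had 5.41 CPM. Ligament-like cells had 5.61 CPM (4.85 to 6.47), with 22.7 CPM in cluster 13 and 13.8 CPM in cluster 6, and pulp-like cells 1.29 CPM from 8 UMIs. Lgr6 thus followed Lgr4 into cluster 24, but the 2 receptors differed in cluster 10, where Lgr4 was at 48.3 CPM. No Lgr6 UMI was seen in fibroblast-like or Schwann-like cells, where Lgr5 was found.

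**Figure D4:**
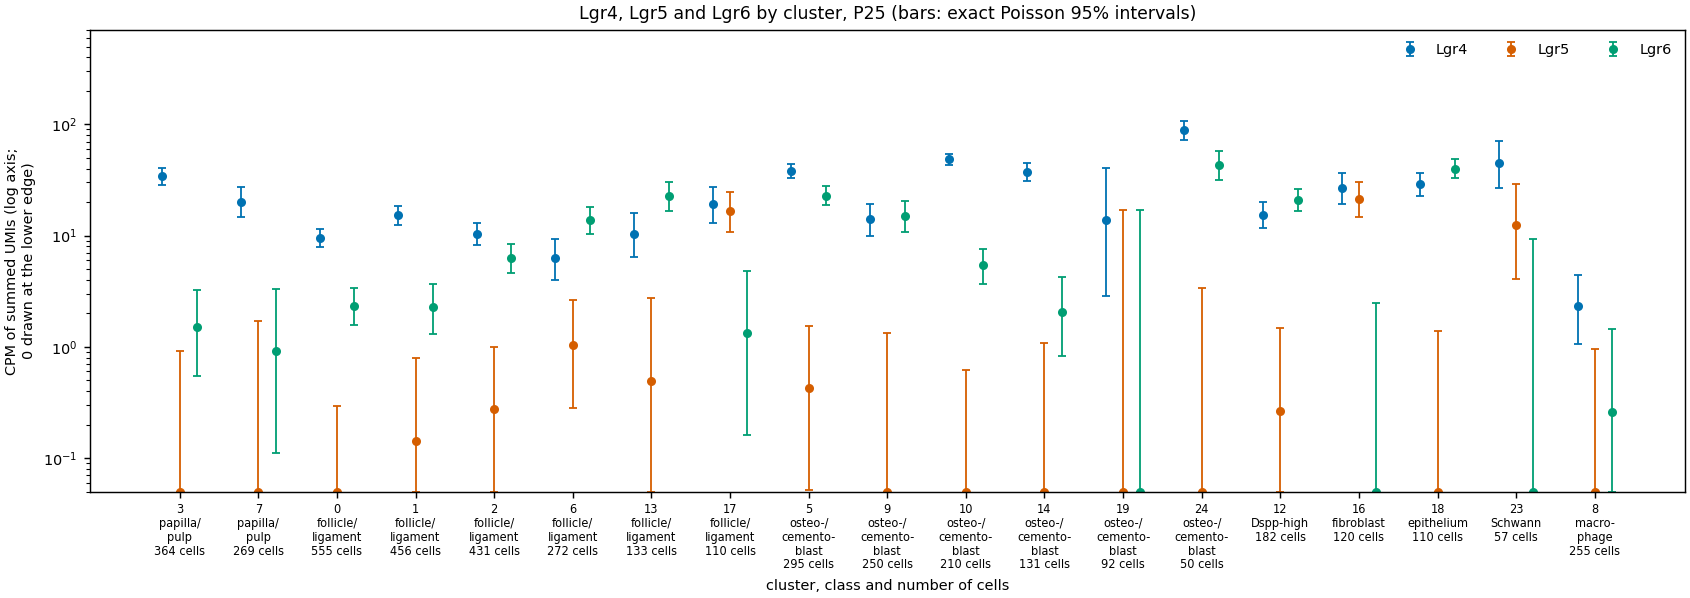
Lgr4, Lgr5 and Lgr6 by cluster at P25, in CPM of summed UMIs on a log axis with exact Poisson 95% intervals, with a count of 0 drawn at the lower edge. Cluster 24 holds the highest Lgr4 and Lgr6 levels (88.6 and 42.9 CPM), and Lgr5 is seen above 10 CPM only in clusters 16, 17 and 23 (21.3, 16.5 and 12.5 CPM).

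Classes were then compared with a fixed size rule. A gene counted as past 2-fold when its log2 ratio, with 1 CPM added to each level, was at least 1 either way and the higher class had at least 5 CPM and 20 UMIs. In Cxcl12-GFP P6, papilla or pulp-like over follicle or ligament-like cells, 4 of the 7 genes were past 2-fold, 2 of them higher and 2 lower, where 14.6% of 10751 genes were (8.19% higher, 6.43% lower). Rspo2 was 5.06-fold higher (3.44 to 7.63), and Rspo4 4.56-fold higher (3.97 to 5.23). Rspo1 was 2.67-fold lower (2.32 to 3.09), and Lgr5 7.58-fold lower. Without pulp-like cluster 3 the log2 ratio of Rspo4 went from 2.14 to -0.025 and that of Rspo1 from -1.39 to -0.34, so both passed 2-fold with the Cldn10 cells in the class and not without them. When doublets were not removed, the ratios were -0.93 for Rspo4 and -0.016 for Rspo1, and without follicle cluster 1 that of Lgr5 was -1.001 with the follicle level under the minimum.

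The same contrast at P25 put 4 genes past 2-fold of the 5 that met the minimum, again 2 higher and 2 lower, where 24.4% of 10636 genes were past it (15.5% higher, 8.91% lower). Rspo4 was 77.2-fold higher (44.9 to 144) in pulp-like cells, and Lgr4 2.655-fold higher (2.21 to 3.18). Rspo1 was lower, at 1 UMI against 1228, a ratio of 0.00449 (0.000114 to 0.0251), and Lgr6 was 4.35-fold lower. The level of Rspo2, at 5.81 and 6.96 CPM, did not pass. Without pulp-like cluster 3 of P25 the log2 ratio of Lgr4 was 0.82, under the threshold. That of Lgr6 was -0.75 with a pseudocount of 5 CPM and -0.92 at the coarser clustering, and without ligament-like cluster 6 or 13 its level was under the minimum.

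In Cxcl12-GFP P6, Col9a1-high over follicle or ligament-like cells, a contrast chosen after the data were seen, 5 of the 6 genes that met the minimum were past 2-fold, 2 higher and 3 lower, where 16.9% of 10696 genes were (8.12% higher, 8.74% lower). Rspo2 was 19.6-fold (13.96 to 28.4) and Rspo4 7.39-fold (6.53 to 8.38) higher. Rspo1 was 7.53-fold lower, Rspo3 8.12-fold lower and Lgr5 29.8-fold lower, while Lgr4 and Lgr6 had ratios of 1.04 and 1.02. The Lgr4 ratio is an average over Col9a1-high clusters that ranged from 19.0 to 97.7 CPM. The log2 ratio of Rspo3 was -0.98 with a pseudocount of 5 CPM, and that of Lgr5 was -1.90 without follicle cluster 1, with the follicle level under the minimum.

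Osteoblast or cementoblast-like over ligament-like cells of P25, also added after the data were seen, had 4 genes past 2-fold, which were all that met the minimum, 2 higher and 2 lower, where 16.6% of 9926 genes were (4.57% higher, 12.0% lower). Lgr4 was 3.67-fold (3.24 to 4.17) and Lgr6 2.31-fold (1.91 to 2.82) higher in the osteoblast-like cells. Rspo1 was 3.12-fold lower and Rspo2 14.04-fold lower. Lgr5, under the minimum, was at 0.110 against 0.965 CPM, and osteoblast-like cluster 9 had more Rspo1 than the ligament-like class. The log2 ratio of Lgr6 was under 1 without osteoblast-like cluster 5 (0.67) or cluster 24 (0.87), and without ligament-like cluster 0 (0.72) or cluster 1 (0.90).

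**Figure D5:**
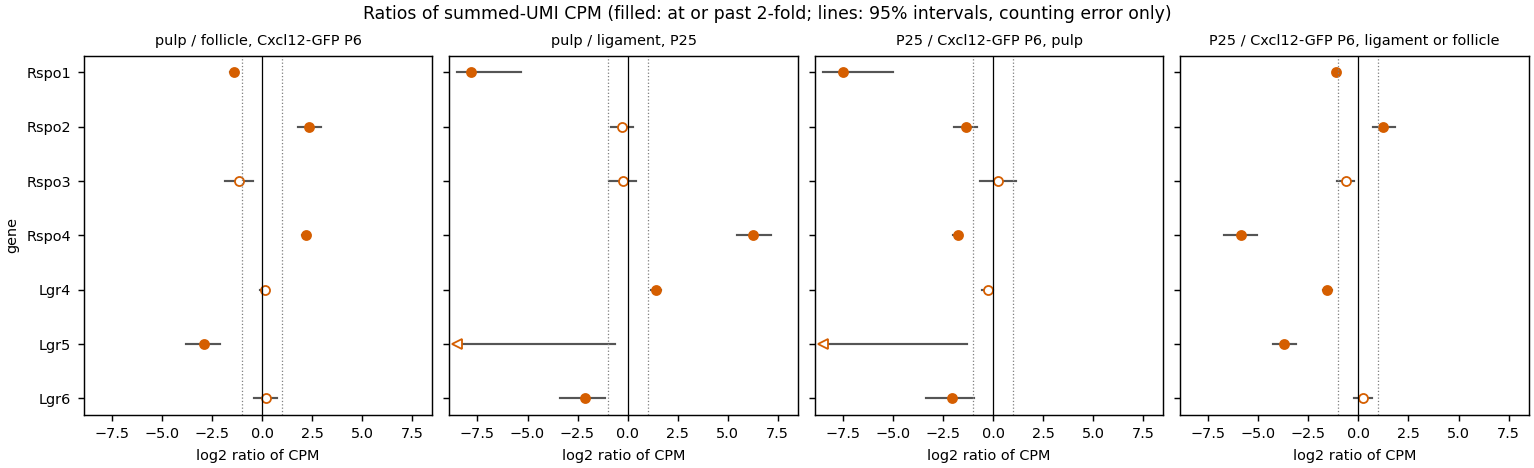
Log2 ratios of CPM of the 7 genes in 4 comparisons, with exact conditional 95% intervals cut at the axis edge. Filled points were past 2-fold with 1 CPM added and met the minimum of 5 CPM and 20 UMIs, dotted lines mark a log2 ratio of 1 either way, and arrows mark a count of 0 on 1 side. Rspo4 is 77.2-fold higher in pulp-like than ligament-like cells of P25, and Lgr4 has a ratio of 1.10 between pulp-like and follicle-like cells of Cxcl12-GFP P6.

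P25 was set against Cxcl12-GFP P6 within classes, where age cannot be told apart from the alleles, the sort and the library. In papilla or pulp-like cells 4 of the 5 genes that met the minimum were past 2-fold, all lower, and 0 were higher, where 22.8% of 10905 genes were past it (11.3% higher, 11.5% lower). Rspo4 stood at 31.6 against 107 CPM, 3.40-fold lower (2.91 to 3.98). Rspo1 was at 1 against 245 UMIs, Rspo2 was 2.56-fold lower and Lgr6 4.21-fold lower. Lgr4 stood at 29.2 against 35.3 CPM, and Lgr5 was at 0 against 14 UMIs, at least 2.43-fold lower by the exact interval. Against the Cldn10 cluster 3 alone, without cluster 6, Rspo4 was the only gene past 2-fold, 5.70-fold lower (4.87 to 6.70), and Rspo2 and Lgr6 had ratios of 0.754 (0.460 to 1.24) and 0.586 (0.201 to 1.65). Lgr4 was lower there too, at 29.2 against 47.7 CPM, a ratio of 0.611 (0.499 to 0.748). Rspo4 in turn was not lower without cluster 3, with a log2 ratio of 0.43, and was at 0.42 when doublets were not removed. Osteoblast markers moved with these groups, all 10 with UMIs at P25 and 9 of 10 at day 6, and summed to 2719 CPM at P25 and 665 CPM at day 6. Their part in the result was not tested.

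In follicle or ligament-like cells 5 of the 7 genes were past 2-fold between P25 and Cxcl12-GFP P6, 1 higher and 4 lower, where 24.0% of 10482 genes were (9.29% higher, 14.7% lower), at a median log2 ratio of -0.28 over all of them and -1.08 over the 7. Rspo2 was 2.37-fold higher (1.65 to 3.50), Rspo1 2.15-fold lower, Lgr4 2.92-fold lower and Lgr5 12.97-fold lower. Rspo4 was also past 2-fold, but its day 6 level was background. The count was 3 without ligament-like cluster 2 of P25, and also 3 without follicle cluster 1 of Cxcl12-GFP P6, and the log2 ratio of Rspo2 was 0.85, 0.93 and 0.69 without these and cluster 13 of P25. When doublets were not removed it was 0.067 for Rspo2 and -0.82 for Rspo1, and without cluster 1 of P25 it was -0.89 for Rspo1. Erythroid markers moved with the groups too, 5 of 7 with UMIs at day 6 and 7 of 7 at P25, and summed to 170 CPM at day 6 and 368 CPM at P25, and osteoblast markers, 9 and 10 of 10 with UMIs, to 731 and 5033 CPM. Their part was not tested.

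Between the day 6 libraries, Cxcl12-GFP P6 over Cxcl12-creER P6 in the follicle or ligament-like class, 1 of the 3 genes that met the minimum was past 2-fold, higher, and 0 were lower, where 25.2% of 7576 genes were past it (16.4% higher, 8.82% lower). It was Rspo4, at 0 UMIs in 89 cells of Cxcl12-creER P6 and at background in the other library, at least 3.63-fold by the exact interval. Rspo1 had a ratio of 1.34 (0.945 to 1.96), Lgr4 1.41 and Lgr5 0.421 (0.254 to 0.743). This comparison rested on few UMIs, and its count went up to 5 under other clusterings.

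Other genes of the pathway were read from 5 lists. Between papilla or pulp-like and follicle or ligament-like cells in Cxcl12-GFP P6, of 9 secreted Wnt antagonists that met the minimum, 4 were higher and 4 lower in pulp-like cells. Wif1 and Sfrp2, which bind Wnt proteins, stood at 2921 against 392 CPM and 476 against 65.6 CPM. Dkk2, which blocks LRP co-receptors, and Notum, which inactivates Wnt proteins, were lower, at 13.9 against 137 CPM and 9.67 against 56.4 CPM. The E3 ligase Znrf3 had 17.6 and 13.3 CPM. Of 12 E3 ligases and Wnt receptors 1 was higher and 2 lower, of 6 Wnt ligands 0 and 2, of 6 feedback targets 2 and 1, and of 8 heparan sulphate proteoglycans 0 and 2.

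In the P25 contrast of pulp-like and ligament-like cells, 6 of 12 E3 ligases and Wnt receptors were higher and 1 lower, at a median log2 ratio of 0.92 against 0.27 over all genes. Of 8 Wnt ligands 1 was higher and 6 lower (median -2.75), of 8 antagonists 1 and 5 (median -1.96), of 6 feedback targets 0 and 4 (median -1.33) and of 8 proteoglycans 1 and 2. Wnt10a, at 1.13 against 24.3 CPM, Sfrp2, at 18.2 against 1101 CPM, and Lef1, a transcription factor of the pathway, at 0.484 against 14.2 CPM, were lower in pulp-like cells, the cells with Rspo4 and more Lgr4. Axin2, a general readout of Wnt signalling, stood at 11.4 and 11.0 CPM.

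From Cxcl12-GFP P6 to P25, 8 of 9 antagonists were lower in pulp-like cells and 0 higher (median -2.45 against -0.12 over all genes), among them Sfrp4 at 0.968 against 166 CPM. Of 6 feedback targets 3 were lower and 0 higher, with Lef1 at 0.484 against 97.6 CPM. Of 12 receptors and E3 ligases 5 were higher and 2 lower, with Fzd8 at 43.7 against 6.49 CPM and Znrf3 at 7.74 against 17.6 CPM. Of 6 Wnt ligands 1 was higher and 4 lower, and of 8 proteoglycans 1 and 2. In follicle or ligament-like cells 4 of 8 Wnt ligands were higher and 2 lower, with Wnt10a at 24.3 against 1.64 CPM, and 2 of 9 antagonists were higher and 5 lower, with Dkk2 at 2.78 against 137 CPM. Of 11 receptors and E3 ligases 1 was higher and 2 lower there, of 6 feedback targets 1 and 3, and of 8 proteoglycans 0 and 2. The comparisons of these paragraphs share cells, so their counts are not independent of each other. Between the day 6 libraries, 1 of 9 antagonists was higher in Cxcl12-GFP P6 and 1 lower, while of 6 receptors and E3 ligases 0 and 2 were, of 3 Wnt ligands 0 and 1, of 7 feedback targets 0 and 3, and of 8 proteoglycans 2 and 0. In Col9a1-high over follicle or ligament-like cells 4 of 11 antagonists were higher and 6 lower, 3 and 3 of 12 receptors and E3 ligases, 1 and 3 of 6 Wnt ligands, 1 and 4 of 6 feedback targets, and 1 and 3 of 8 proteoglycans. In osteoblast-like over ligament-like cells of P25, 2 of 10 antagonists were higher and 4 lower, 1 and 2 of 9 receptors and E3 ligases, 2 and 3 of 9 Wnt ligands, 0 and 1 of 6 feedback targets, and 1 and 2 of 8 proteoglycans. There the antagonists Dkk1 and Sost stood at 139 against 0.760 CPM and 12.1 against 0.117 CPM.

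The genes most like each member were found by Pearson's r over the 20 named classes of at least 50 cells, centred within each library, among 10619 genes. The classes of a library share its depth and its free RNA, so r is a description only. The 29 bone marrow stromal-like cells of P25 were too few to be among these classes. They had Rspo3 at 375 CPM, Rspo2 at 65.4 CPM and 0 Lgr5 UMIs, so the r values of these genes leave that class out. Rspo1 was closest to Itga11 (0.87), Adamts2 (0.85) and Ptgfr (0.85), and Rspo2 to Grin2b (0.89), Gng8 (0.88) and Lypd1 (0.87). Rspo3 was closest to Mrgprf (0.86), Heyl (0.83) and Ncald (0.82), and Rspo4 to Ppp1r3c (0.88), Tsix (0.87) and Sall3 (0.87). Among the receptors, Lgr4 was closest to Kif21a (0.88), Nrbp2 (0.87) and Vldlr (0.87), Lgr5 to Nipal1 (0.93), Tubb4a (0.91) and Mrgprf (0.89), and Lgr6 to Wnt7b (0.85), Myo19 (0.82) and Rab27b (0.79). Between members, r was 0.63 for Rspo2 and Rspo4, 0.67 for Lgr5 and Rspo3, 0.56 for Lgr5 and Rspo1 and -0.46 for Lgr5 and Lgr6.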

How the data were processed

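The 10x 3' libraries were deposited as matrices of UMI counts per gene and barcode. The authors made these counts with Cell Ranger on mm10, per the submitters' processing notes (the file headers give version 3.1.0 for P25 and 6.0.0 for Cxcl12-creER P6).

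Barcodes under 500 detected genes or over 15% mitochondrial UMIs were left out, and the highest doublet scores were removed at 0.8% per 1000 cells. Clustering used 2000 variable genes without the 7 members and the pathway lists, 30 components, 15 neighbours and Leiden resolution 1.0 in each library alone (Python 3.11.15, scipy 1.17.1, leidenalg 0.10.2). Clusters were named from 20 marker lists, with a scoring rule that was set and adjusted several times after the clusters were seen (at least 3 markers 1.5-fold up, score 0.9, lead 0.3). The members and lists were chosen with earlier results of these data known. CPM intervals were exact Poisson, shares exact binomial (Clopper-Pearson) and ratios exact conditional binomial, all at 95% and with no test across samples. A count of 0 was bounded by 3 counts. In simulated data 200 of 200 genes at 4-fold were called past 2-fold and 0 of 10393 unchanged genes. The simulated counts had counting error alone, with no other spread between cells and no weakly expressed genes among those changed. This checks the calculation only. Named were the 7 members, for each the 3 genes of highest r, and up to 4 genes of the largest change per pathway list and comparison; Znrf3 and Axin2 are named besides, for their role and after their values were seen, as are the leading genes of clusters. Alternatives were 2 other resolutions, other cell filters, no doublet removal, naming by the best list alone, a mean of cell CPM, another pseudocount, no minimum and joint clustering; leaving out each cluster and joining Col9a1-high with pulp-like cells were chosen after seeing the data, as were 2 of the 7 comparisons.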

Additional observations from a re-analysis of the deposited data

Results flagged for a closer look

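For Rspo2 and Lgr6 the log2 ratio had opposite signs in 2 libraries or 2 classes, and neither difference was tested, since each group was 1 library. The log2 ratio of papilla or pulp-like over follicle or ligament-like cells was 2.01 for Rspo2 in Cxcl12-GFP P6 and -0.23 at P25, a difference of 2.24, and for Lgr6 it was 0.14 and -1.53, a difference of 1.67. The same 4 levels of each gene, read from day 6 to day 25, gave Rspo2 -1.22 in pulp-like and 1.02 in ligament-like cells, a difference of -2.24, and Lgr6 -1.49 and 0.18, a difference of -1.67. In pulp-like cells of day 6 without cluster 6, Rspo2 was at 7.70 and Lgr6 at 2.20 CPM, against 14.9 and 5.43 CPM with it. In most of these pairs 1 side was near no change: the ratio was 0.834 (0.571 to 1.19) for Rspo2 at P25, 1.12 (0.743 to 1.69) for Lgr6 in Cxcl12-GFP P6 and 1.16 (0.858 to 1.59) for Lgr6 in ligament-like cells, and none of these was past 2-fold.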

How the results depend on the processing

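Of 53 planned repeats of a count, 44 stayed within 1.5 times, as did 64 of 67 added after seeing the data. Of 315 planned repeats of a member's ratio 271 kept their side of the 2-fold rule, and 438 of 469 added ones. Direction was compared only where at least 1 of the 2 settings was past 2-fold. A ratio that changed sign with neither past it is therefore counted as kept. The day 6 library comparison in follicle or ligament-like cells (1 gene past 2-fold) was the least stable: 5 at resolution 0.5, 2 at 10% mitochondrial UMIs, without doublet removal or with the best list alone, and 3 with the mean of cell CPM, no minimum or joint clustering. Its log2 ratios reversed at resolution 0.5 (Rspo2 -2.24, Lgr6 -1.74), with the best list (Lgr6 -2.12), with the mean of cell CPM (Rspo3 1.17) and with joint clustering (Rspo2 -2.68, Rspo4 -1.42, Lgr6 -2.04). The genes past 2-fold in joint clustering thus shared 0 with the main setting in gene and direction. The pulp-like comparison of P25 and day 6 (4 genes) gave 1 at 10% mitochondrial UMIs, 2 with a pseudocount of 5 CPM and 1 without cluster 6, and the ligament-like one (5 genes) gave 3 without cluster 2 of P25 or cluster 1 of Cxcl12-GFP P6. Without doublet removal Rspo4 reversed to -0.93 in pulp-like over follicle-like cells of Cxcl12-GFP P6 and to 0.42 in P25 over day 6 pulp-like cells, and without pulp-like cluster 3 to -0.025 and 0.43. Joint clustering put Rspo3 at 1.25 in osteoblast-like over ligament-like cells. The cause of these changes was not tested, except where leaving out a cluster is itself the change.

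Some alternatives gave no value. At resolution 0.5 no cluster of Cxcl12-GFP P6 took the pulp name, and joint clustering gave no pulp-like class at all, so the pulp comparisons that need it were not run; a day 6 follicle class of Cxcl12-creER P6 without cluster 4 would have held 10 cells. Depth limits the Cxcl12-creER P6 values most, where Lgr5 had 30 UMIs in all. No paired analysis was possible because each group is 1 library.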
